A study of Homo sapiens with 54 samples.

Results

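The transcripts of 9 endogenous fibroblast growth factors (FGFs), FGF1, FGF2, FGF4, FGF8, FGF11, FGF12, FGF13, FGF17 and FGF19, were followed through 27 cultures of human pluripotent stem cells. The members were taken as the array probes whose RefSeq accession maps to one of these symbols, without use of their signal, and all 9 genes were found, on 11 probes. They are 9 of the 22 FGF genes measured here, and the other 13 are given as counts. RNA had been hybridised to 1-colour Agilent arrays with 42405 probes for human transcripts, each culture on 2 duplicate arrays, which gives 54 arrays. The cultures were grown with basic FGF (bFGF, recombinant FGF2), with FGFC, a recombinant chimera built from parts of FGF1 and FGF2, or with no added FGF. The added factors are proteins, so that the arrays read the RNA of the cells' own FGF genes.

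Each line is a single ESC or iPSC line, and 5 culture systems were used. H1 ESCs were kept without feeder cells in E8 Medium, a defined medium that holds 100 ng/mL of bFGF. In 3 numbered experiments a pre-culture was followed by 4 days with 100 ng/mL of bFGF, 100 ng/mL of FGFC or no FGF, and 1 H1 culture each was kept for 30 days with bFGF or FGFC. The same line was grown for 41 days in medium conditioned by mouse embryonic fibroblasts (MEF-CM) with 5 ng/mL of either factor. KhES-1 ESCs were grown for 30 days on MEF feeder cells with 5 ng/mL and 201B7 iPSCs for 50 days on MEF feeder cells with 10 ng/mL. The fifth system was 253G1 iPSCs kept for 36 days in E8 Medium with 100 ng/mL. The 4 systems other than H1 in E8 Medium have 1 pre-culture, 1 bFGF culture and 1 FGFC culture each, and 1 further culture holds H1 ESCs that had been differentiated in vitro. That culture went through embryoid body formation in a serum-replacement medium other than E8 Medium, with no added FGF. Cultures of a system descend from the same line and medium, no slide holds arrays of more than 1 system, and FGF dose changes with the medium. Line, slide, dose and medium therefore cannot be told apart wherever they change together.

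FGFs are signalling proteins that bind FGF receptors together with heparan sulfate and switch on the MAP kinase ERK. FGF1, FGF2, FGF4, FGF8 and FGF17 act on nearby cells, FGF19 is a hormone that works with Klotho co-receptors, and FGF11, FGF12 and FGF13 belong to a subfamily that stays inside the cell and binds voltage-gated sodium channels. Human pluripotent stem cells depend on FGF signalling for self-renewal and also make FGF2 themselves.

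Signals are given as normalized signal, which is log2 of the array signal minus the 75th percentile over the probes of that array, and a culture's value is the mean of its duplicate arrays. A probe at 0 lies at that percentile, and levels are compared within a probe only. FGF2, FGF11, FGF12 and FGF13 were well above background on 54 of 54 arrays and FGF19 on 50. FGF4 reached that mark on 33 arrays, FGF8 on 25, FGF1 on 19 and FGF17 on 10. Duplicate arrays differed by a median of 0.06 for FGF13, 0.10 for FGF2 and 0.64 for FGF17, so that FGF17 was the least precisely measured. FGF1 and FGF2 have 2 probes each, and the brighter one is given. The second FGF1 probe was well above background on 4 of 54 arrays and followed the first weakly or not at all, so its value is given beside each FGF1 difference that passed. The second FGF2 probe was well above background on all 54 arrays and gave differences of the same direction in each comparison that the brighter probe passed.

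All 7 measured pluripotency markers of 8, among them POU5F1 and SOX2, were well above background on both arrays of each of the 27 cultures. Their summed level, on a linear scale where 1 is the percentile of the array, was 340.0 to 610.3 in the 11 FGF-fed H1 cultures in E8 Medium and 31.0 in the differentiated culture. In bulk RNA, fewer cells of a type and less RNA per cell cannot be told apart. Per array, 56.0% to 79.2% of probes passed the mark for signal well above background.

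**Figure D1:**
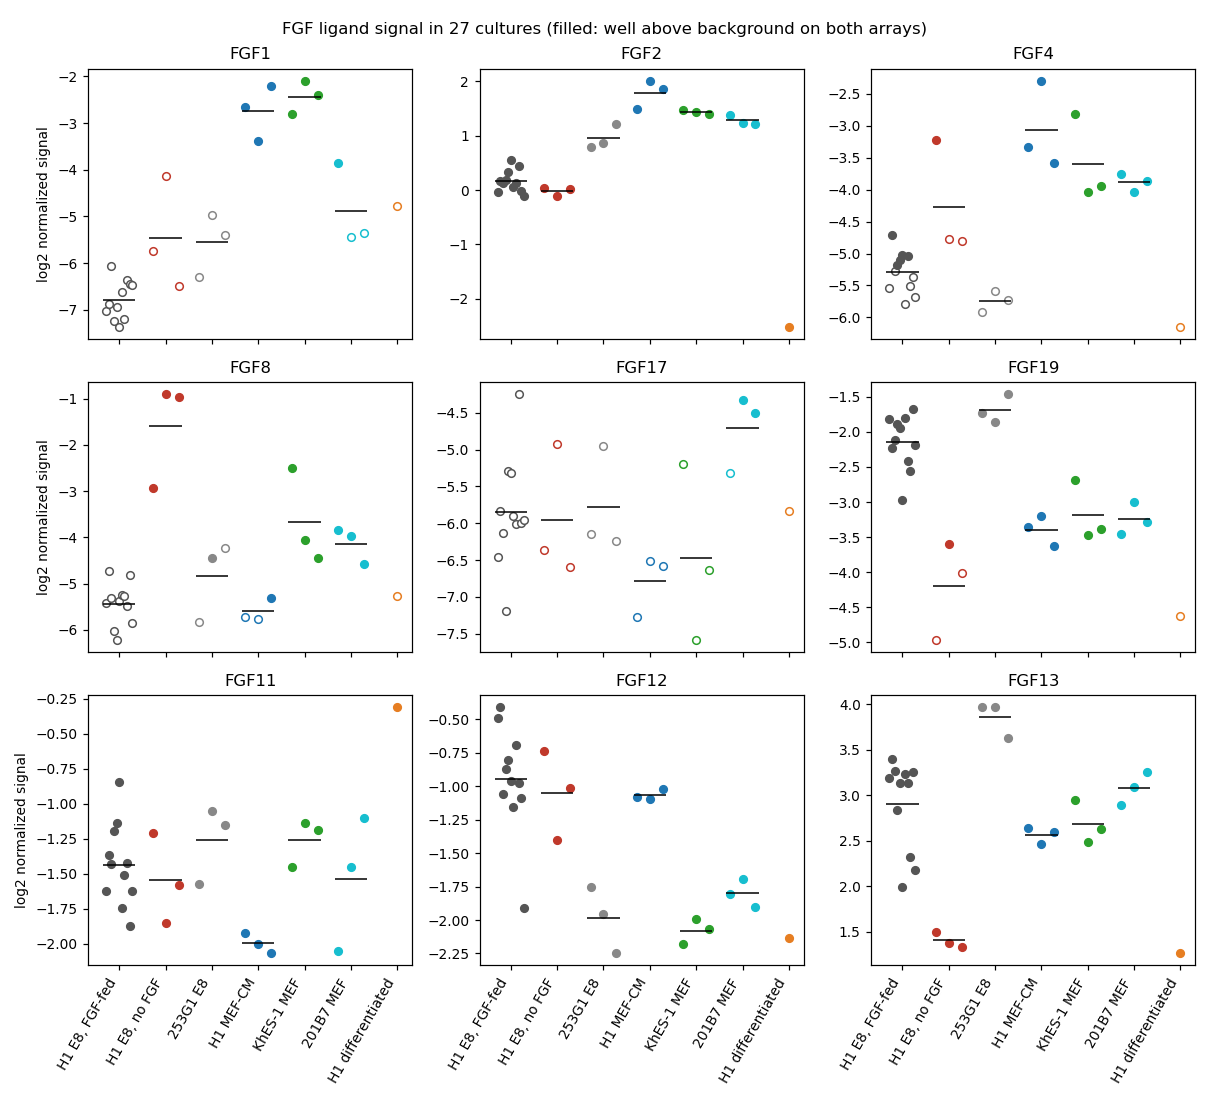
Normalized signal (log2, relative to the 75th percentile of the array) of the 9 FGF genes in 27 cultures. Each point is the mean of a culture's 2 arrays, filled where both were well above background, and bars are group means. By group mean FGF8 is highest in the 3 cultures without FGF, FGF1, FGF2 and FGF4 are highest in H1 in MEF-CM and in KhES-1, and FGF2 is lowest in the differentiated culture.

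The first comparison asked which ligand genes responded when H1 ESCs spent 4 days without added FGF. FGF8 rose, and FGF13 and FGF19 fell, against both bFGF and FGFC. Thus 3 of 9 members were past the test against bFGF, where 12.7% of all probes were called, and 3 of 9 against FGFC, where 10.8% were called. Both comparisons share the same 3 cultures without FGF.

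FGF8, a ligand of embryonic patterning centres, had a normalized signal of -4.72, -6.22 and -5.27 with bFGF in experiments 1, 2 and 3. With FGFC it was -5.32, -5.39 and -5.49, and without FGF it was -2.94, -0.90 and -0.95. All 3 cultures without FGF lay above all 6 others, experiment 1 least so. The cultures without FGF had a mean of -1.60 ± 1.16 (SD, n = 3) and those with bFGF one of -5.41 ± 0.76 (SD, n = 3). Their log2 difference was 3.81 ± 0.52 (SE; limma adjusted p = 0.000657), with bFGF near background, and its size depended on the treatment of dim signals. It was 3.26 with each spot held at or above the dimmest passing spot of its array and 1.79 with normexp background correction, and passed in both. Against FGFC, where FGF8 was not well above background on any of 6 arrays, it was at least 11.2-fold higher (limma adjusted p = 0.000745), or by 2.96 on the log2 scale with spots held at that level. FGF8 was well above background on 6 of 6 arrays without FGF and on 1 of 6 with bFGF. It was also well above background on 6 of 6 arrays each of FGF-fed KhES-1 and 201B7. The highest KhES-1 culture, at -2.50, lay above the H1 culture without FGF of experiment 1. Within the experiments, whose arms share a scan day, the rise over bFGF was 1.78, 5.32 and 4.32.

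FGF19, the hormone of the family, had a normalized signal of -2.24, -1.94 and -2.42 with bFGF and of -4.97, -3.60 and -4.02 without FGF. The groups did not overlap, and without FGF only 3 of 6 arrays were well above background. The log2 difference was -1.997 ± 0.322 against bFGF (SE; limma adjusted p = 0.00192) and -1.65 ± 0.32 against FGFC (adjusted p = 0.00708). Its size was not fixed. Over 14 alternative settings of processing and fit it ran from -2.20 to -0.85 against bFGF and from -2.15 to -0.66 against FGFC.

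FGF13, an intracellular member, was measured well above background throughout. In the bFGF cultures it stood at 3.40, 3.13 and 3.14, in the FGFC cultures at 3.27, 1.99 and 2.33, and in those lacking FGF at 1.497, 1.38 and 1.33. The cultures without FGF were the 3 lowest and lay close together, whereas the FGFC cultures were spread out. The FGFC culture at 3.27 lay inside the bFGF range, and those at 1.99 and 2.33 lay between the groups. The log2 difference was -1.82 ± 0.28 against bFGF (SE; limma adjusted p = 0.00142) and -1.13 ± 0.28 against FGFC (adjusted p = 0.0251).

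These calls depended on which experiments and arms were in the fit. Against bFGF all 3 genes passed without experiment 1 and also without experiment 2. Without experiment 3, none of the 3 genes passed against bFGF, although the log2 differences were 3.55 for FGF8 (adjusted p = 0.0536), -1.83 for FGF13 (adjusted p = 0.0776) and -2.20 for FGF19 (adjusted p = 0.0688). Over all probes the calls went from 5400 to 1272 in that fit. With all 3 experiments but only the FGFC and no FGF arms in the fit, FGF13 (adjusted p = 0.112) and FGF19 (adjusted p = 0.0557) did not pass against FGFC. In the fit of all arms, FGF13 against FGFC also missed the threshold without experiment 1 (adjusted p = 0.0697) or experiment 2 (adjusted p = 0.0725), FGF19 without experiment 1 (adjusted p = 0.0585), and none of the 3 passed without experiment 3 (0.0699 for FGF8, 0.281 for FGF13 and 0.156 for FGF19).

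FGF2 itself changed little. The bFGF cultures had a normalized signal of 0.17, 0.33 and 0.13, the FGFC cultures one of 0.13, 0.55 and 0.44, and those lacking FGF one of 0.05, -0.11 and 0.03. The 3 cultures without FGF were below each of the 6 others, by a difference of -0.23 against bFGF (95% interval -0.58 to 0.12; adjusted p = 0.410) and -0.38 against FGFC (adjusted p = 0.174), and neither passed.

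FGF4, an ERK-activating ligand of the early embryo, was -3.22, -4.77 and -4.80 without FGF against -4.71, -5.10 and -5.04 with bFGF. The difference of 0.69 ± 0.37 came mostly from experiment 1 and did not pass (limma adjusted p = 0.286), and fewer arrays were well above background without FGF (2 of 6) than with bFGF (6 of 6). FGF1, a broadly acting ligand, was -5.73, -4.14 and -6.50 without FGF and -6.88, -6.95 and -7.19 with bFGF. Its difference of 1.55 ± 0.51 did not pass either (adjusted p = 0.0743), and only 1 of the 12 arrays of these groups was well above background. FGF11, FGF12 and FGF17 differed from bFGF by -0.21, -0.41 and -0.25, none past the test.

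**Figure D2:**
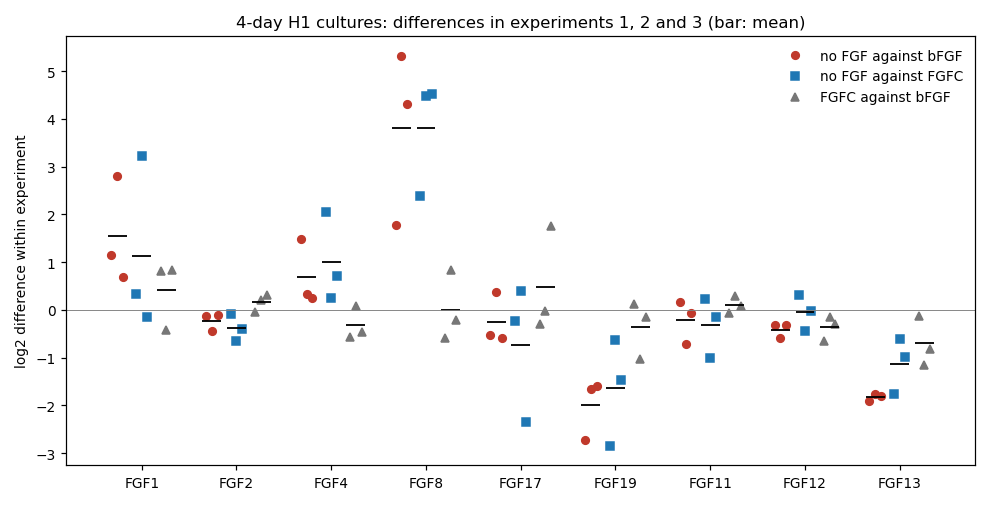
Log2 differences between 4-day arms of the same experiment for the 9 FGF genes, with 1 point per experiment and a bar at the mean of 3. FGF8 lies above 0 and FGF13 and FGF19 lie below 0 in all 3 experiments for both comparisons with no FGF, while FGFC against bFGF scatters around 0 for most genes.

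Among the 13 other FGF genes, 1 rose (FGF3) and 2 fell (FGF20 and FGF21) without FGF against bFGF. FGF3, a relative of FGF7 in sequence, differed by 1.92 ± 0.53 (adjusted p = 0.0375), FGF20, a ligand best known from brain and inner ear, by -1.36 ± 0.26 (adjusted p = 0.00533) and FGF21, a metabolic hormone, by -2.79 ± 0.60 (adjusted p = 0.0107). Against FGFC 0 of the 13 rose and 2 fell, FGF20 (-1.32 ± 0.26, adjusted p = 0.00709) and FGF21. Of the 10 receptor and carrier genes, 4 rose and 0 fell against bFGF, with a median difference of 0.64 beside 0.01 over all probes. The receptor FGFR3 differed by 2.43 ± 0.33 (adjusted p = 0.000627), the carrier FGFBP3 by 0.95 ± 0.26 (adjusted p = 0.0379) and the receptor FGFR2 by 0.77 ± 0.21 (adjusted p = 0.0377). With FGFC as the reference, 2 of these 10 rose (FGFR3 and FGFRL1) and 0 fell. The median difference was then 0.34, beside -0.02 over all probes. Of the 10 feedback genes, which ERK signalling induces and which dampen or relay it, 3 fell and 1 rose against bFGF (median -0.29). DUSP6, an ERK phosphatase, differed by -2.66 ± 0.59 (adjusted p = 0.0122), the inhibitor SPRY4 by -2.40 ± 0.34 (adjusted p = 0.000839) and the transcription factor ETV4 by -1.44 ± 0.23 (adjusted p = 0.00172).

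Some markers of pluripotency and of other cell types also differed between the cultures without FGF and those with bFGF, and others did not. The 7 pluripotency markers summed to 267.9 to 373.1 without FGF and to 378.5 to 466.6 with bFGF, with NANOG at a mean of 2.42 against 4.13 and POU5F1 at 6.996 against 8.07, while SOX2 was higher (5.81 against 4.49).

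Of the 4 neuroectoderm markers, PAX6 went from 0 of 6 arrays above the mark with bFGF to 6 of 6 without FGF and ZIC1 from 0 of 6 to 4 of 6, whereas SOX1 was not above it on any array of either group. The sum of this list (25.6 to 30.4 against 7.36 to 9.62) was mostly TUBB3, and FGF-fed H1 in MEF-CM reached 31.5 to 42.4 and 201B7 on feeder cells up to 24.8. Of the 6 amnion and trophoblast markers, GATA3 had a mean of -1.46 without FGF and -6.87 with bFGF (6 of 6 and 0 of 6 arrays above the mark) and TFAP2A of -2.55 and -6.73 (5 of 6 and 0 of 6). HAND1 was above the mark on 1 of 6 arrays without FGF and 2 of 6 with bFGF. CDX2 was above it on 1 of 6 in each group and CGA on 0 of 6 in each. The sum of this list overlapped between the groups (6.28 to 8.97 against 6.00 to 7.74), being mostly KRT7 at 2.69 against 2.75.

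The 9 fibroblast and muscle markers summed to 19.5 to 27.6 without FGF and 49.0 to 56.5 with bFGF, mostly through THY1 (3.70 against 5.40). ACTA2 was higher (0.18 against -2.56), TNNT2 lower (-2.98 against -0.33), and DCN and LUM were not above the mark on any of these arrays. Mesendoderm sums (0.08 to 0.15 against 0.09 to 0.11) and endoderm sums (0.57 to 1.08 against 0.63 to 0.88) overlapped. The part of these cells in the FGF values was not tested.

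The comparison of FGFC with bFGF asked whether the ligand genes read the chimera differently at a matched dose. After 4 days 0 of 9 members and 0% of all probes were called, and 1 member (FGF13) and 1262 probes had an unadjusted p under 0.05. FGF13 was lower with FGFC by 0.13, 1.15 and 0.81 in experiments 1, 2 and 3, which is a mean difference of -0.70 (95% interval -1.31 to -0.08; adjusted p = 1.000). FGF2 differed by 0.16 (interval -0.19 to 0.51) and FGF19 by -0.35 (-1.06 to 0.36), so that at 3 cultures a group a 2-fold difference in FGF19 lies inside the interval. FGF8 was well above background on 0 of 6 FGFC arrays and 1 of 6 bFGF arrays, so its difference of 0.01 is one of background signal.

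In long-term culture, where 1 bFGF and 1 FGFC culture of each of 5 systems were compared with the system as a block, 0 of 9 members and 0% of all probes were called, and 0 members and 2537 probes had an unadjusted p under 0.05. The intervals were narrower. FGF2 differed by 0.01 (95% interval -0.24 to 0.26), FGF11 by 0.08 (-0.18 to 0.33), FGF19 by -0.14 (-0.52 to 0.23), FGF13 by -0.20 (-0.69 to 0.30) and FGF12 by -0.26 (-0.61 to 0.08). FGF13 was lower with FGFC by 1.08 in H1 ESCs in E8 Medium and by 0.34 in 253G1 iPSCs, but higher by 0.14 to 0.16 in each of the 3 systems with MEF-based media. The size of the FGFC effect on FGF13 did not differ detectably between long-term and 4-day culture (0.50 ± 0.35, adjusted p = 0.918), and no member passed that test.

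Across the 5 systems kept with bFGF or FGFC, 9 of 9 members were past limma's F-test, but so were 85.4% of all probes, so that the pairs of systems say more. FGF2 ordered the systems as H1 in E8 Medium (0.17 ± 0.20, SD, n = 11), 253G1 (0.96 ± 0.22, n = 3), 201B7 (1.28 ± 0.09, n = 3), KhES-1 (1.43 ± 0.04, n = 3) and H1 in MEF-CM (1.79 ± 0.27, n = 3). The steps from H1 in E8 Medium to 253G1 passed a test, and 201B7 and KhES-1 did not differ past it (-0.15 ± 0.17, adjusted p = 0.477). The other neighbouring steps were not tested.

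H1 ESCs in MEF-CM against the same line in E8 Medium had 5 of 9 members past the test, where 37.3% of all probes were called. FGF1, FGF2 and FGF4 were higher, and FGF19 and FGF11 were lower. The median over all probes was -0.15 in this comparison and -0.03 after quantile normalization. Values relative to that median are given for the members that passed.

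FGF1 was -2.66 in the pre-culture, -3.39 after 41 days with bFGF and -2.21 after 41 days with FGFC in MEF-CM, whereas the 11 FGF-fed H1 cultures in E8 Medium ran from -7.36 to -6.06 with a median of -6.88. The groups were far apart, and FGF1 was well above background on 6 of 6 arrays in MEF-CM and on 0 of 22 in E8 Medium. It was at least 8.20-fold higher in MEF-CM, from a log2 difference of 4.03 ± 0.33, or 4.17 relative to the median (limma adjusted p = 1.19e-08). With each spot held at or above the dimmest passing spot of its array (floored spots) the difference was 2.10, and with normexp it was 1.22, both past the test. The second FGF1 probe, above the mark on 3 of 6 and 0 of 22 arrays, gave 0.46 with overlapping groups (adjusted p = 0.222), so the rise in FGF1 rests on 1 probe.

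FGF2 was 1.49, 2.01 and 1.86 in MEF-CM and -0.10 to 0.55 (median 0.13) in E8 Medium, without overlap. The log2 difference was 1.62 ± 0.14 (limma adjusted p = 2.00e-08), or 1.76 relative to the median of all probes, and the second FGF2 probe gave 1.71. FGF4 was -3.33, -2.30 and -3.58 in MEF-CM and -5.78 to -4.71 (median -5.27) in E8 Medium. Its difference was 2.22 ± 0.26 (adjusted p = 1.18e-06), or 2.37 relative to the median, with 6 of 6 arrays well above background against 12 of 22, and it was 0.68 with normexp (adjusted p = 0.00284).

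FGF19 ran the other way, with -3.35, -3.20 and -3.62 in MEF-CM below all 11 cultures in E8 Medium (-2.97 to -1.68, median -2.12). The difference was -1.25 ± 0.22 (limma adjusted p = 0.000189), or -1.10 relative to the median. FGF11 was -1.92, -2.01 and -2.07 in MEF-CM against -1.87 to -0.84, a smaller difference of -0.56 ± 0.19 (-0.42 relative to the median, adjusted p = 0.0246) that did not pass without the 4-day cultures (-0.29, adjusted p = 0.368) or without FGFC cultures (-0.47, adjusted p = 0.157). The fit without the 4-day cultures also left out the H1 pre-cultures of experiments 2 and 3. FGF8, FGF12, FGF13 and FGF17 differed by -0.16, -0.12, -0.34 and -0.94 and did not pass, although FGF13 did without FGFC cultures (-0.62, adjusted p = 0.0183) and FGF17 with floored spots (-1.24, adjusted p = 0.00128). Of the other 13 FGF genes 1 rose and 5 fell in MEF-CM, with FGF16 higher by 1.49 ± 0.32 (adjusted p = 0.00114) and FGF20 lower by 1.54 ± 0.19 (adjusted p = 3.24e-06).

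The same genes were then read over all 3 systems with MEF-based media (9 cultures) against both systems in E8 Medium (14 cultures), a contrast chosen after the data had been examined. Here 6 of 9 members were past the test, where 49.4% of all probes were called and the median over all probes was -0.15. The ranges did not overlap for 2 of 9 members, FGF2 and FGF4, as for 2.08% of all probes. FGF4 ran from -4.04 to -2.30 in MEF-based media and from -5.91 to -4.71 in E8 Medium (difference 2.00 ± 0.18, adjusted p = 4.91e-08), a difference of 0.99 with floored spots and 0.70 with normexp. FGF2 ran from 1.22 to 2.01 and from -0.10 to 1.21, so that its groups touched (difference 0.94 ± 0.10, adjusted p = 3.48e-07). The second FGF2 probe gave 1.01 (adjusted p = 3.07e-05) with overlapping ranges, so the separation of FGF2 rests on the brighter probe. FGF19 was lower by 1.36 ± 0.16 (adjusted p = 1.19e-06), and FGF13 by 0.60 ± 0.18 (adjusted p = 0.00746). Over 11 alternative settings the FGF19 difference ran from -1.48 to -0.68 and passed in all of them. FGF8 was higher by 0.67 ± 0.26 (adjusted p = 0.0354), but its call was lost in 5 alternatives and its sign turned in 1 of them, to -0.12, when signals were held at or above the dimmest one that passed the background mark. FGF1, above the mark on 16 of 18 arrays in MEF-based media and 1 of 28 in E8 Medium, was higher by 2.81 ± 0.24 (adjusted p = 1.51e-08) with overlapping ranges. This difference was 1.27 with floored spots and 1.02 with normexp, and the second probe gave -0.06 (adjusted p = 0.835).

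Of the other 13 FGF genes 2 rose and 6 fell in this contrast. FGF7 was higher by 2.98 ± 0.26 (adjusted p = 3.16e-08) and FGF20 lower by 1.78 ± 0.14 (adjusted p = 4.37e-09). FGF7 was not called in H1 in MEF-CM against H1 in E8 Medium, where only FGF16 of these genes was called higher. It was called higher in 201B7 than in KhES-1, both in MEF-based media. In the contrast of MEF-based media with E8 Medium 8 of the 10 feedback genes fell and 0 rose, with a median of -0.48. For H1 in MEF-CM against H1 in E8 Medium, 1 of these 10 fell (DUSP6) and 0 rose. Their median there was -0.16, beside -0.15 over all probes. Over all MEF-based media against E8 Medium, DUSP6 was lower by 2.96 ± 0.12 (adjusted p = 4.22e-13) and SPRY4 by 1.34 ± 0.11 (adjusted p = 1.94e-08). Of the 10 receptor and carrier genes, 3 rose and 5 fell, with FGFR3 higher by 1.10 ± 0.17 (adjusted p = 3.34e-05) and FGFBP3 lower by 2.02 ± 0.19 (adjusted p = 1.01e-07). The MEF-based cultures had 5 or 10 ng/mL of FGF and those in E8 Medium 100 ng/mL, and the parts of dose and medium cannot be told apart. The summed level of fibroblast and muscle markers was 73.5 to 81.3 in H1 in MEF-CM, 41.8 to 47.7 in KhES-1 and 76.7 to 260.9 in 201B7, against 44.0 to 66.7 in H1 and 62.2 to 68.2 in 253G1 in E8 Medium. Endoderm markers summed to 8.46 to 17.7 in H1 in MEF-CM and 0.58 to 2.01 in H1 in E8 Medium, mostly through AFP (3.66 against -0.30), with 1.95 to 3.38 in KhES-1, 4.21 to 7.04 in 201B7 and 4.10 to 5.52 in 253G1. Neuroectoderm markers summed to 31.5 to 42.4 in H1 in MEF-CM and 6.56 to 14.8 in H1 in E8 Medium, again mostly TUBB3. The part of these cells, or of RNA from mouse feeder cells, was not tested.

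**Figure D3:**
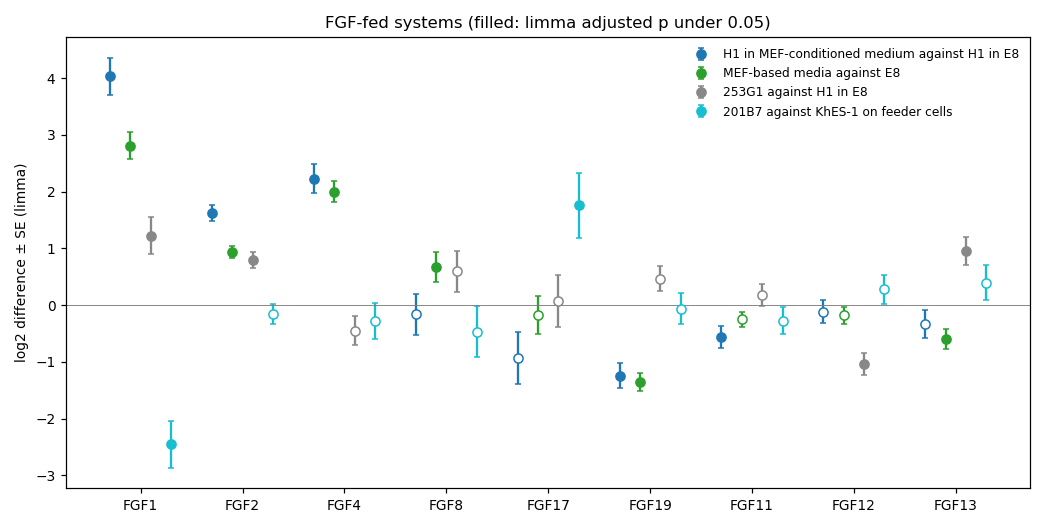
Log2 differences ± SE (limma) of the 9 FGF genes in 4 contrasts of FGF-fed systems, filled where the adjusted p was under 0.05. FGF1, FGF2 and FGF4 lie above 0 and FGF19 below 0 for both contrasts with MEF-based media, and FGF1 alone falls by over 2 in 201B7 against KhES-1.

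FGF1 and FGF2 rose together in MEF-CM, and FGF13 fell without FGF, so the stretches of 250 bases upstream of their annotated transcription starts are shown, from RefSeq's promoter windows on GRCh38.p14, 5′ to 3′ on the strand of the gene. These windows matched 5 of the 9 genes (FGF1, FGF2, FGF11, FGF12 and FGF13), and FGF4, FGF8, FGF17 and FGF19 had no entry. The array probes do not tell which start was used, so all separate starts are printed, except that FGF1 has a further start 49 bases from its first one. Capitals mark matches, on either strand, to motifs named beside each sequence. The motifs searched, with the share of all 35116 windows that hold each, were the GC box GGGCGG (42.6%), the CCAAT box CCAAT (32.0%), the ETS core CCGGAA (14.5%), the TCF/LEF core CTTTGA (11.2%), the TATA box TATAAA (10.72%), the SOX core ACAATG (9.29%), the E-box CACGTG (6.34%), the AP-1 site TGACTCA (4.20%) and the octamer ATTTGCAT (1.63%). A match is a description of the letters and not a bound site.
FGF2, chr4:122826581-122826830, plus strand, 3 GC boxes: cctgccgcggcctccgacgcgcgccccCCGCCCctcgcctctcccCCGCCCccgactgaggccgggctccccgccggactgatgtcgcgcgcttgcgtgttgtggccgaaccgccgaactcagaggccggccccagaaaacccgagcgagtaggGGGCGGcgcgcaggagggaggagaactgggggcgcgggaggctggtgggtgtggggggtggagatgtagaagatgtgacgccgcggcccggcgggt
FGF1, chr5:142698071-142698320, minus strand, 1 CCAAT box and 1 SOX core: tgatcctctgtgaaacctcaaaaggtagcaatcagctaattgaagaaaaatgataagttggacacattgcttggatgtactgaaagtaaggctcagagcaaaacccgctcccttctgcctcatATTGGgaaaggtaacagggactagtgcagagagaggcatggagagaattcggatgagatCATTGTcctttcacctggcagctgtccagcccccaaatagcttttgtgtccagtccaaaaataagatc
FGF1, chr5:142686091-142686340, minus strand, 1 GC box: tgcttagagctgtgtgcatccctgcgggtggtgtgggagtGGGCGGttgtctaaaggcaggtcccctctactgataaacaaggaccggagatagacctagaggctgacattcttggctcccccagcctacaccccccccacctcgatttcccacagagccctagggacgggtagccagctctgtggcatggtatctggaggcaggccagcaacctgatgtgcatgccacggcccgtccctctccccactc
FGF1, chr5:142644240-142644489, minus strand, 1 GC box and 1 AP-1 site: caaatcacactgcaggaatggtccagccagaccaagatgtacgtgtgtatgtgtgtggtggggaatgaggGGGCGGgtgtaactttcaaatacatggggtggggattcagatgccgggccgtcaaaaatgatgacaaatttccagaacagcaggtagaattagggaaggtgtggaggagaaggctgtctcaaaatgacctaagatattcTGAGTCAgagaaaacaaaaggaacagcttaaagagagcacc
FGF13, chrX:139205024-139205273, minus strand, 1 TATA box: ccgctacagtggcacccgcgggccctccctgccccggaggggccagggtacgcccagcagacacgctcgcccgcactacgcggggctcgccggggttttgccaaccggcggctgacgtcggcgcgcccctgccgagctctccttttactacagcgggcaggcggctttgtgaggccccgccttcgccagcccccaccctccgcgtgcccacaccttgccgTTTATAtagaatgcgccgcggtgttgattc
FGF13, chrX:138739354-138739603, minus strand, no match: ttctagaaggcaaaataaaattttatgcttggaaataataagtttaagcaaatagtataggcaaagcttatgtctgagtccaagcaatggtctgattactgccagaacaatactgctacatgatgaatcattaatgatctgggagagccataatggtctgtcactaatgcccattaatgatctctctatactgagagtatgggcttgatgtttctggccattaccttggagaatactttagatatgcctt

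The upstream window of FGF2 had a G+C content of 75.2%, against a median of 58% over all windows, while those of FGF1 lay between 44.8% and 60.8%. The FGF13 starts differed from each other, with 70.4% and 36.4%. The GC box, the most common of the motifs searched, occurred in the FGF2 window and in some but not all of the FGF1 windows.

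The 2 lines in E8 Medium were compared to see how much the ligand genes depended on the line. 253G1 iPSCs against H1 ESCs had 4 of 9 members past the test, where 35.9% of all probes were called. FGF2 was 0.80, 0.87 and 1.21 in 253G1, above all 11 H1 cultures (-0.10 to 0.55), a difference of 0.79 ± 0.14 (limma adjusted p = 0.000202). FGF13 was 3.97, 3.97 and 3.63 against 1.99 to 3.40 in H1, also without overlap (0.95 ± 0.25, adjusted p = 0.00547). FGF12, an intracellular member like FGF13, was lower at -1.75, -1.95 and -2.25 against -1.91 to -0.41 (-1.04 ± 0.20, adjusted p = 0.000547). FGF1 was higher by 1.23 ± 0.33 (adjusted p = 0.00704) with 1 of 6 and 0 of 22 arrays well above background, so that little more than a bound of at least 1.17-fold is known. Of the other 13 FGF genes 5 fell and 0 rose, and the one well above background on every H1 array was FGF3 (-0.68 ± 0.21, adjusted p = 0.0160). FGF1 did not pass with signals held at that dimmest level (0.60, adjusted p = 0.113) or with normexp background correction (0.29, adjusted p = 0.223), and its second probe gave 0.57 (adjusted p = 0.119). Leaving out the 4-day cultures and the H1 pre-cultures of experiments 2 and 3 kept FGF2 and FGF13 past the test but neither FGF1 (adjusted p = 0.118) nor FGF12 (-0.82, adjusted p = 0.0596).

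On MEF feeder cells, 201B7 iPSCs against KhES-1 ESCs had 2 of 9 members past the test, where 31.4% of all probes were called. FGF1 was -3.86, -5.43 and -5.36 in 201B7 and -2.81, -2.10 and -2.40 in KhES-1, without overlap. The difference was -2.45 ± 0.41 (limma adjusted p = 0.000236), or -2.79 relative to the median of all probes, which was 0.34 here and -0.05 after quantile normalization. The second FGF1 probe, near background, gave -0.57 (adjusted p = 0.209), and the first gave -0.74 with normexp (adjusted p = 0.0106). FGF17, a close relative of FGF8, was -5.32, -4.32 and -4.50 in 201B7 and -5.20, -7.58 and -6.63 in KhES-1. Its groups overlapped, with 5 of 6 and 1 of 6 arrays above the mark, and the difference of 1.76 ± 0.58 (adjusted p = 0.0257) did not pass after quantile normalization (0.95, adjusted p = 0.287), with slide as a random block (adjusted p = 0.0848) or on the second arrays (adjusted p = 0.0946).

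Of the 13 other FGF genes, 8 were higher and 1 was lower in 201B7. Their median difference was 0.92, beside 0.34 over all probes, of which 8753 were higher and 4564 lower, or 3979 and 4590 after quantile normalization. The 201B7 pre-culture arrays had a 75th percentile signal of 182 and 234, lower than any other array. They were also on another slide and scan day than the other 201B7 arrays, and the part of this in the differences was not tested. FGF7, a ligand made by fibroblasts and other mesenchymal cells, differed by 4.85 ± 0.46 (adjusted p = 2.46e-07), FGF5 by 3.87 ± 0.46 (adjusted p = 4.56e-06), FGF18 by 2.66 ± 0.41 (adjusted p = 8.09e-05) and FGF3 by 1.16 ± 0.26 (adjusted p = 0.00285), while FGF16 was lower (-1.29 ± 0.40, adjusted p = 0.0209). The fibroblast and muscle marker sums of these cultures, given above, did not overlap. Among them DCN, a fibroblast gene, had a mean normalized signal of 6.07 in 201B7 and -3.62 in KhES-1, and LUM was not well above background on any array of either line. Their part in the ligand values was not tested.

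Differentiated H1 ESCs are 1 culture, so its values have no replicate check. It also differed from the pre-cultures in its medium and in having no added FGF. Differentiation, medium and the lack of FGF therefore cannot be told apart here. Against the mean of the 3 pre-cultures, 6 of 9 members differed by 2-fold or more, as did 29.7% of all probes, and the median over all probes was -0.12. FGF2, FGF12, FGF13 and FGF19 were lower, and FGF1 and FGF11 were higher. The differentiated culture lay outside the range of the 11 FGF-fed H1 cultures in E8 Medium for 7 of 9 members, as for 52.9% of all probes.

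FGF2 was -2.51 against 0.07 ± 0.11 (SD, n = 3) in the pre-cultures, a log2 difference of -2.59 or 6.01-fold, and it was the lowest of all 27 cultures by over 2. The second FGF2 probe gave -2.25. FGF19 was -4.63 against -1.83 ± 0.05, a difference of -2.80, with 1 of 2 arrays well above background, and lay among the 3 cultures without FGF. Its difference was -2.51 with floored spots and -1.38 with normexp. FGF13 was 1.26 against 3.09 ± 0.22 (difference -1.82), just below the 3 cultures without FGF (1.33 to 1.497). FGF12 was -2.13 against -0.84 ± 0.33 (difference -1.29).

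FGF11 was the highest of all 27 cultures at -0.31, against -1.52 ± 0.29 in the pre-cultures (difference 1.21, 2.32-fold). FGF1 was -4.77 and at least 2.53-fold higher than the pre-cultures, where 0 of 6 arrays were well above background, although only 1 of the 2 differentiated arrays was. The log2 difference of 2.19 was 0.59 with floored spots and 0.43 with normexp, so that FGF1 left the 2-fold list and 5 of 9 members stayed on it in each. FGF4, above the mark on 1 of 2 differentiated arrays, was -6.15 and differed from the pre-cultures by -0.65, and its duplicates disagreed, with 0.24 on the first arrays and -1.53 on the second. FGF8 (-5.27) and FGF17 (-5.83) were not well above background on either array and lay inside the range of the FGF-fed cultures. The means of the 3 cultures without FGF, for comparison, were -1.60 for FGF8 and -0.01 for FGF2, and the difference from the differentiated culture was not tested.

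The differentiated culture held markers of several lineages. Its summed level was 75.5 for the 6 amnion and trophoblast markers against 5.54 to 8.35 in FGF-fed H1 cultures in E8 Medium, 16.6 against 0.58 to 2.01 for the 5 endoderm markers and 216.3 against 44.0 to 66.7 for the 9 fibroblast and muscle markers, and all markers of these lists were well above background. The 4 neuroectoderm markers summed to 25.8 and the 5 mesendoderm markers to 0.88, with 4 of 4 and 3 of 5 well above background. The part of each cell type in the FGF values was not tested. Among the 10 feedback genes, 4 were lower by 2-fold or more (SPRY4, DUSP6, ETV4 and ETV5) and 0 were higher.

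**Figure D4:**
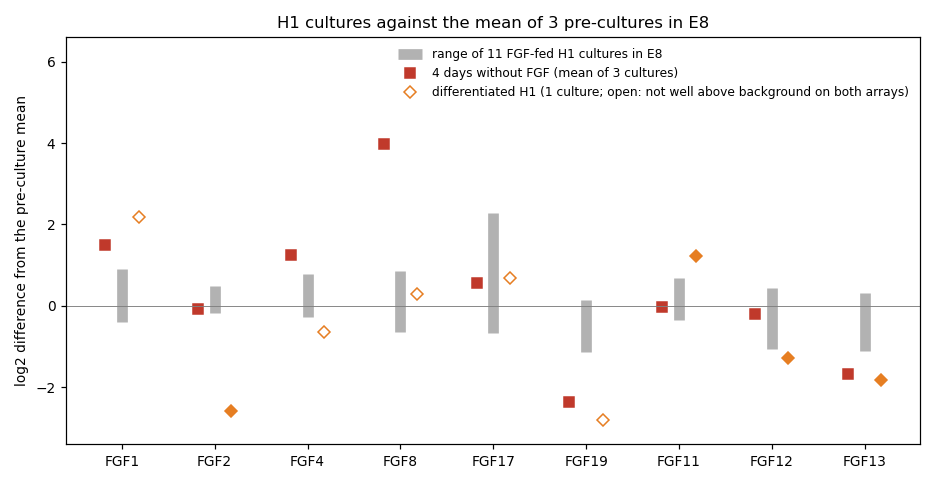
Log2 differences from the mean of 3 H1 pre-cultures in E8 Medium for the 9 FGF genes, with the range of the 11 FGF-fed H1 cultures (grey bars), the mean of 3 cultures without FGF (squares) and the single differentiated culture (diamonds, open where not well above background on both arrays). FGF13 and FGF19 are low in both, FGF8 is high in the cultures without FGF, and FGF2 is low in the differentiated culture.

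The genes whose pattern over the 27 cultures was most like that of each member were sought among 15110 genes well above background on at least 27 of 54 arrays, by Pearson's r, as a description, since cultures share lines, media and slides. For FGF2 they were HERC5 (r = 0.92), PRDM14 (0.92) and FGD4 (0.92), and for FGF4 TLE6 (0.89), PRODH (0.84) and PRORSD1P (0.84). FGF19 was most like MFSD2A (0.93), DUSP5 (0.91) and ECSCR (0.90), and FGF13 was close to AKR1C3 (0.90) and HCST (0.90). FGF12 was most like PCDHGA3 (0.91), ASMTL-AS1 (0.90) and PCDHGB2 (0.89), which include a pair of clustered protocadherins whose probes may share sequence, and FGF11 was close to FMO4 (0.89) and PHLDB3 (0.86). Over the 23 FGF-fed cultures alone these r values were 0.78 to 0.93. FGF1, FGF8 and FGF17 were below the limit on arrays and have no such list.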

How the data were processed

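The authors deposited scanner output of Agilent Feature Extraction 10.7.3.1, which gives each spot a linear signal intensity after background subtraction, with no scaling across arrays. The deposited median spot and background intensities are raw, and the other deposited columns used are binary marks for outliers, saturation and signal above background. The deposited series table held the same intensities (largest difference 0), so it gave no separate analysis.

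Control spots (4259 of 62976) were left out, as were 266 to 623 spots per array marked as outliers, 0 probes were saturated, signals were set to at least 1, and spots of a probe were averaged as log2 before the 75th percentile was subtracted. Probes passed the background mark when the share of their spots with it was 0.5 or more. RefSeq accessions named 25715 probes with 1 symbol and 0 with several, and 16690 have no symbol here. The precision is limited by the number of cultures.

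Duplicate arrays were averaged, and limma 3.58.1 in R 4.3.3 (lmFit, eBayes, Benjamini-Hochberg over all 42405 probes, threshold 0.05) was used after testing on simulated data. All adjusted p-values are limma's. Nothing says that numbered experiments used separate thaws, so p-values measure the spread between these cultures. The 4-day fit held 12 cultures, the long-term fit 10 with system as a block, and the systems fit 23. Python 3.11.15 with pandas 2.3.3, numpy 2.4.6 and matplotlib 3.10.9 made the tables and figures. At least N-fold values were taken against the lowest probe signal well above background of each dim array, or the probe's own where higher; the floor alternative uses the dimmest passing spot, which can lie higher.

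The members, gene lists and tests were chosen with earlier results of these data known. All members are named, with the brightest probe of each; other FGF genes are named where they passed and all arrays of the higher group passed the background mark, and up to 3 receptor or feedback genes by size. Alternatives were normexp (offset 50, on median signals), quantile normalization, the percentile over spots, a floor, dim-probe filters, single arrays, the median probe, blocks for experiment or slide, and cultures left out. In experiment 3 the passage labels of some arrays contradict each other. Passage labels of experiment 2 differ between the pre-culture (49) and its 4-day cultures (59). Among the genes most like FGF11 and FGF13, 1 each is not reported here.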

Additional observations from a re-analysis of the deposited data

How the results depend on the processing

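Of 984 alternative values for single members, 926 kept their side of the threshold or moved by less than the spread of the pre-cultures, 25 lost a call, 7 gained one, 25 of the differentiated culture moved by more, and 1 reversed. That one was FGF8 in MEF-based media against E8 Medium, -0.123 with signals floored at the dimmest one above background. The count of members called without FGF was 3 in every alternative against bFGF except when 1 experiment was left out, where it was 0 to 3, and against FGFC it was 0 to 2 on leaving out 1 experiment, 1 with only the 2 arms in the fit (FGF13 and FGF19 lost) and 4 (FGF4 added) with quantile normalization. Samples of an experiment share a number, and their deviations from the group means correlated by -0.16 to 0.52 (median 0.19, 18 pairs), so the pairing was not used. With the experiment as a replicate block both counts stayed at 3 (3 shared genes each), the count for FGFC against bFGF at 0, and no call of a member changed. For 253G1 against H1 the count was 2 without the 4-day cultures. That setting also leaves out the pre-cultures of experiments 2 and 3, so 3 of the 11 H1 cultures stay in the fit. For 201B7 against KhES-1 it was 1, and not 2, with only probes well above background, with quantile normalization, on the second arrays, with slide as a random block and without FGFC cultures; FGF1 was the one kept. The causes were not tested. For FGFC against bFGF the count was 0 under all alternatives, 0 to 0 on leaving out an experiment or a system. Over all probes, the split of higher and lower calls went with quantile normalization from 4257 and 11542 to 4925 and 4901 for MEF-CM against E8 Medium in H1, from 8753 and 4564 to 3979 and 4590 for 201B7 against KhES-1, from 6058 and 9177 to 7803 and 7636 for 253G1 against H1, and from 5630 and 15332 to 7615 and 7963 for MEF-based media. All calls went from 15799 to 8687 with normexp, 8517 with probes above background and 9980 without FGFC cultures for MEF-CM, from 20962 to 7960 and 11522 with the former 2 settings for MEF-based media, from 15235 to 5624 without the 4-day cultures for 253G1, and from 13317 to 21614 with the floor for 201B7. For no FGF they went from 5400 to 9750 with only the 2 arms and 1272 to 3557 on leaving out an experiment against bFGF, and from 4575 to 2553 with the 2 arms, 6998 with slide as a random block, and 1480 and 974 without experiments 2 and 3 against FGFC. Signal near background limits FGF1, FGF4, FGF8 and FGF17 most.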
